A study of Mus musculus with 5 samples.

Results

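The mouse genome encodes 46 protein-coding genes whose symbols are Mmp, Adamts or Timp followed by a number, and all 46 were present among the 56941 gene identifiers counted in iridocorneal angle RNA. They comprised 23 matrix metalloproteinases (MMPs), 19 ADAMTS proteases and 4 tissue inhibitors of metalloproteinases (TIMPs). The genes were chosen by symbol alone, with the ADAMTS-like genes (Adamtsl), which have no protease domain, left out. Aqueous humor leaves the eye through the trabecular meshwork of the iridocorneal angle, where iris meets cornea, and the dissected strip kept some iris and ciliary body. RNA came from untreated mice aged 12 months, described as male and female, as 3 pools of DBA/2J and 2 pools of DBA/2J-Gpnmb+ (Gpnmb+). DBA/2J mice carry mutant Tyrp1b and Gpnmb alleles and develop pigmentary glaucoma, whereas Gpnmb+ mice share the Tyrp1b allele and the DBA/2J background and carry the functional Gpnmb gene. Each pool was described as 3 mice, although the Gpnmb+ library names list 2 animals and the DBA/2J names 3, so p-values measure the spread between pools.

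MMPs and ADAMTS proteases are zinc enzymes, mostly secreted as inactive precursors, that cut collagens, proteoglycans, elastin and one another outside the cell. TIMPs bind the active site of MMPs, and Timp3, which is held in the matrix, also blocks several ADAMTS proteases. In the trabecular meshwork this turnover keeps the outflow path open, and shifts between protease and inhibitor alter resistance to aqueous humor.

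A group of 10 MMP genes lies within 427 kb of chromosome 9 (GRCm39, chr9:7272514-7699587), in the order Mmp13, Mmp12, Mmp1b, Mmp3, Mmp1a, Mmp10, Mmp8, Mmp27, Mmp20 and Mmp7. Other members lie side by side as pairs, with 53.1 kb between Adamts1 and Adamts5 on chromosome 16 and 19.9 kb between Adamts15 and Adamts8 on chromosome 9. The letters TGAGTCA, the consensus site of AP-1 (the Fos and Jun transcription factors), were searched on both strands of the 300 bases before each canonical transcript start. They occurred in 11 of the 46 member promoters and in 4.74% of 21756 promoters of protein-coding genes. The 11 were those of Mmp1a, Mmp1b, Mmp3, Mmp7, Mmp9, Mmp10, Mmp12, Mmp13, Mmp19, Mmp28 and Adamts3, and in 9 of them the site lay within 100 bases of the start. The STAT letters TTCCNGGAA, searched on both strands, occurred in 0 member promoters and 1.14% of all. The TATA letters TATAAA, searched on the gene strand, occurred in 11 member promoters and 9.45% of all. No 2 of these 3 motifs overlap in their letters. The last 120 bases before the start are printed for 5 genes with a site near the start, because they include the called gene Mmp12, the gene of highest level Mmp3 and 3 genes that varied widely between pools. Capitals mark the AP-1 letters, and the windows lie on the plus strand at chr9:7272394-7272513 (Mmp13), chr9:7347254-7347373 (Mmp12), chr9:7445702-7445821 (Mmp3), chr9:7502233-7502352 (Mmp10) and chr2:164790019-164790138 (Mmp9).
Mmp13: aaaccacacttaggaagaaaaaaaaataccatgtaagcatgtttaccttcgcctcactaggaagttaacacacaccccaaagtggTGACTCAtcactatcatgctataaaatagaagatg
Mmp12: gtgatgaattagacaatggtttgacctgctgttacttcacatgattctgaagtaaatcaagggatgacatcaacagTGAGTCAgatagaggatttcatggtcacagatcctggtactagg
Mmp3: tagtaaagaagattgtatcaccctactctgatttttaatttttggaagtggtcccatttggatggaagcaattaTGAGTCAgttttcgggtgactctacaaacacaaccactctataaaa
Mmp10: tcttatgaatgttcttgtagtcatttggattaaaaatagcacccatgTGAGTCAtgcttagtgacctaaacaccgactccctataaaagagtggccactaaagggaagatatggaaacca
Mmp9: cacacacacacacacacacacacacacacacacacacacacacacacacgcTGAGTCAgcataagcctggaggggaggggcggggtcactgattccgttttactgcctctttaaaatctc
The site began 35, 44, 46, 73 and 69 bases before the start of Mmp13, Mmp12, Mmp3, Mmp10 and Mmp9, in that order. In Mmp13 the letters lie on the other strand and therefore read TGACTCA. A match describes these letters and not a bound factor.

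Between 43900661 and 49837758 reads were counted on genes per pool. Values are CPM, the counts on a gene per 1000000 counts of its pool, with pool totals scaled by edgeR's TMM factors. A minimum of 10 counts in any pool kept 19713 genes for testing, including 41 members. Gpnmb itself ranged from 1946 to 2234 counts in DBA/2J and stood at 129659 and 110568 in Gpnmb+. The 10 markers of trabecular meshwork and angle were all tested. Of these, 3 were higher and 5 lower in every DBA/2J pool, against 17.3% and 17.2% of all genes tested. DESeq2 called 2 higher and 3 lower, against 2.76% and 1.94% of all genes tested. Myoc was at 160, 326 and 213 CPM in DBA/2J and at 435 and 535 CPM in Gpnmb+. Its log2 fold change was -1.06, with adjusted p-values of 0.165 by edgeR and 0.00793 by DESeq2. The pools differed in sex-linked RNA. Ddx3y, from the Y chromosome, was at 81.2, 97.1 and 35.1 CPM in the DBA/2J pools and at 0 and 0.0818 CPM in the Gpnmb+ pools. The Gpnmb+ mice are described as including males, and these values go against that description. Genotype and the sex of the mice in a pool therefore cannot be told apart. DBA/2J pool 1 stood apart in 19 early response genes, which summed to 4365 CPM there and to 1002 to 1233 CPM in the other 4 pools. Markers of nonpigmented ciliary epithelium summed to 1195, 1333 and 1447 CPM in DBA/2J and to 485 and 275 CPM in Gpnmb+. All 10 were higher in every DBA/2J pool, against 17.3% of all genes tested. Their median log2 fold change was 1.69, beside -0.02 over all genes tested. DESeq2 called 9 higher, against 2.76%. At an unadjusted edgeR p of at most 0.05 with the fold change needed for a call, 9 were higher, against 4.20%. With adjusted p-values edgeR called 3 of 10 higher (Col9a1, Col9a2 and Six6), calls that were lost in most fits with a pool left out. Fewer cells of a type and less RNA per cell cannot be told apart in pooled tissue.

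Mmp12, the metalloelastase that macrophages secrete, was higher in DBA/2J and was the single member called. A call meant a fold change of 1.5 or more and a p-value no higher than 0.05 in edgeR's quasi-likelihood test after Benjamini-Hochberg adjustment, which 157 of 19713 genes met (0.796%). With a pool left out this number ran from 1 (without DBA/2J pool 2) to 217 (without Gpnmb+ pool 1). Mmp12 stood at 206, 167 and 171 CPM in DBA/2J and at 99.7 and 96.7 CPM in the Gpnmb+ pools. The lowest DBA/2J pool was thus well above both Gpnmb+ pools, and the mean was 181 ± 21.6 CPM (SD, n = 3) against 98.2 ± 2.18 CPM (SD, n = 2). Its fold change was 1.85 (log2 0.89, standard error 0.12, adjusted p = 0.0440 by edgeR with Benjamini-Hochberg adjustment). Leaving out any one pool ended the call, with adjusted p-values from 0.0936 to 0.190 and log2 fold changes from 0.78 to 0.94. Markers of macrophages summed to 3241, 4349 and 3476 CPM in DBA/2J and to 3083 and 3927 CPM in Gpnmb+, with 0 of 12 called by edgeR or DESeq2, 0 past an unadjusted p of 0.05 with the same fold change, and a median log2 fold change of 0.24. Of the 12 markers 10 had a positive log2 fold change, and C1qa, C1qc and Cx3cr1 were higher in every DBA/2J pool, as were 17.3% of all genes tested. C1qa was at 173, 158 and 129 CPM in DBA/2J and at 124 and 104 CPM in Gpnmb+ (log2 0.42, adjusted p = 0.259 by edgeR), whereas the groups of Csf1r overlapped, at 134 to 187 and 116 to 161 CPM. The part of macrophages in the value of Mmp12 was not tested. The exons of Mmp12 overlap those of Mmp1b on the opposite strand, which had at most 8 counts in any pool.

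Of the 41 members tested, 29 had a positive and 12 a negative log2 fold change, with a median of 0.20 beside -0.02 over all genes tested. At an unadjusted p of at most 0.05 with the fold change of 1.5, 8 members were higher and 2 lower, against 4.20% and 4.48% of all genes tested. Every DBA/2J pool was above both Gpnmb+ pools for 14 members and below both for 5, against 17.3% and 17.2% of all genes tested. Leaving out a pool can only keep or raise these counts of separate groups, whatever the genes. DESeq2's Wald test with adjusted p-values called 7 members higher and 1 lower, against 2.76% and 1.94% of all genes tested. Without Gpnmb+ pool 1 the 8 became 13, the 14 became 22 and the 5 became 9, and without Gpnmb+ pool 2 the 8 became 3. The 7 called by DESeq2 were Mmp12, Mmp13, Mmp25, Adamts4, Adamts5, Adamts8 and Adamts9, and the member called lower was Adamts19. The plot of fold changes by role shows how these members fell among the others.

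**Figure D1:**
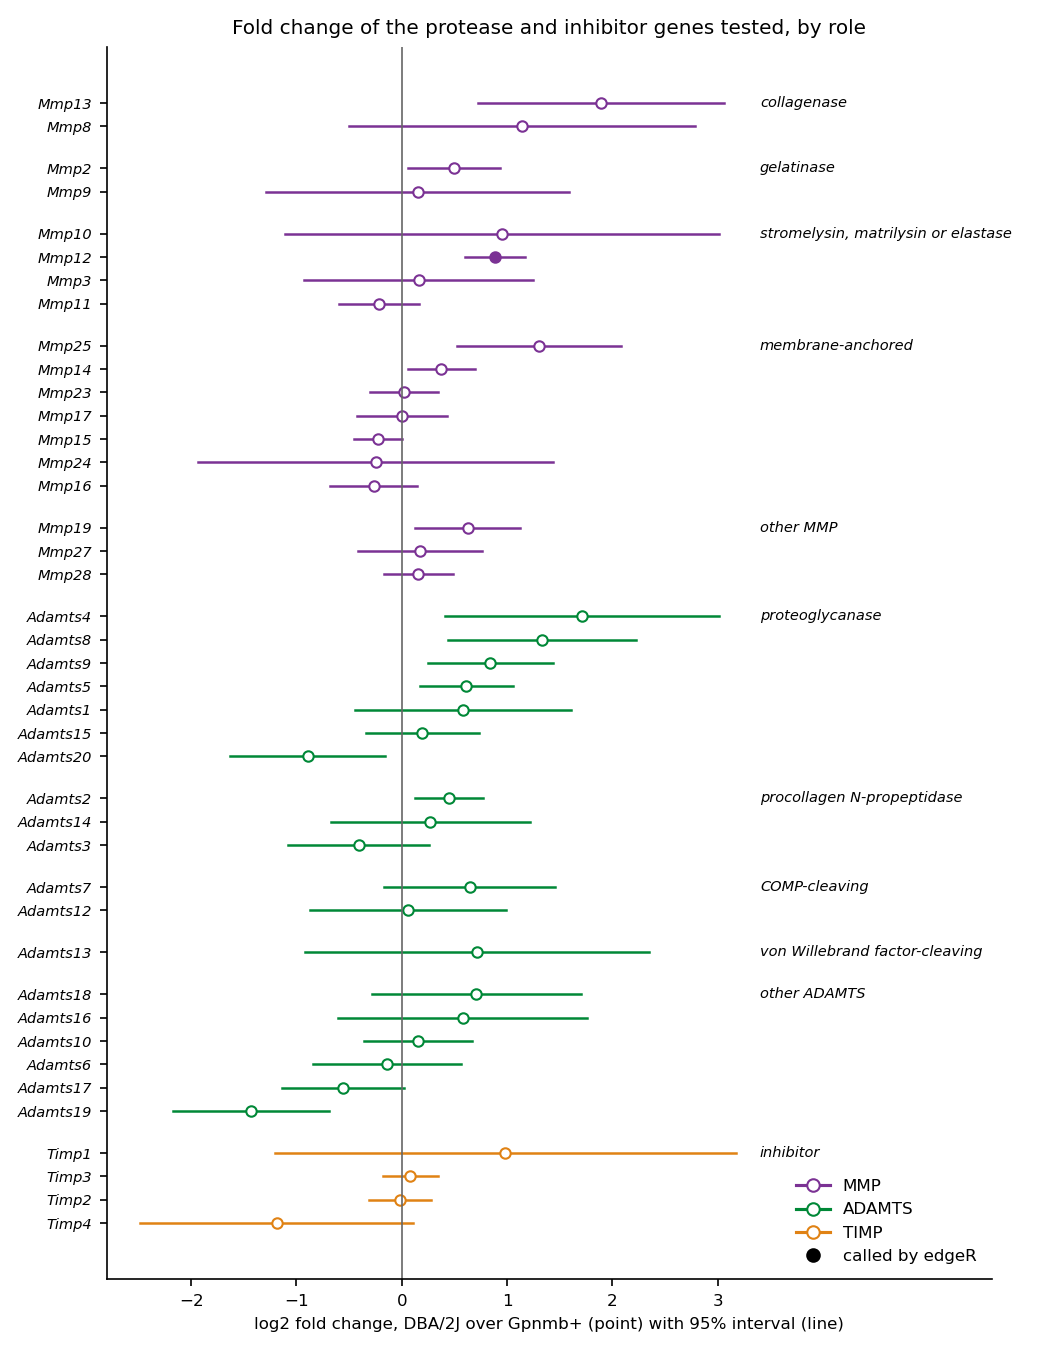
Log2 fold change of DBA/2J over Gpnmb+ (points, x axis) with the 95% interval from edgeR's fit (lines) for the 41 members tested, grouped by role, with colours for the 3 families and a filled point for the gene called. Mmp12 alone is filled at 0.89, Mmp13 lies farthest right at 1.89 and Adamts19 farthest left at -1.43, and the widest interval among the inhibitors is that of Timp1, from -1.21 to 3.17.

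Among the collagenases, which cut intact fibrillar collagen, Mmp13 had the largest positive log2 fold change of all members tested, but edgeR did not call it. Mmp13 was at 56.7, 27.1 and 88.9 CPM in DBA/2J and at 16.2 and 14.9 CPM in Gpnmb+. All 3 DBA/2J pools were above the Gpnmb+ pools, while differing up to 3.28-fold among themselves. The log2 fold change was 1.89 (95% interval 0.72 to 3.06, adjusted p = 0.147 by edgeR), and DESeq2 gave an adjusted p of 0.000359. Mmp8, the collagenase of neutrophils, was at 3.53 CPM in DBA/2J pool 1 and at 0.593 to 1.23 CPM in the other 4 pools, so the groups overlapped. The remaining collagenase genes, Mmp1a and Mmp1b, had 1 and 9 counts over all 5 pools, nearly all in DBA/2J pool 1, and were not tested.

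The gelatinase Mmp2, which acts on denatured collagen and on basement membrane, was one of the most abundant members. It was at 292, 278 and 264 CPM in DBA/2J and at 237 and 157 CPM in Gpnmb+. The groups did not overlap, but the log2 fold change of 0.49 (95% interval 0.06 to 0.93) was below the fold change minimum and its adjusted p was 0.268 by edgeR. The other gelatinase, Mmp9, was at 8.62, 2.45 and 3.45 CPM in DBA/2J and at 5.87 and 2.84 CPM in Gpnmb+. Pool 1 was the highest in either genotype, and the groups overlapped.

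Mmp3, or stromelysin-1, which degrades proteoglycans and fibronectin and activates other MMPs, was the protease of highest level and the 2 genotypes overlapped. It was at 1635, 1230.2 and 1011 CPM in DBA/2J and at 1719 and 594 CPM in Gpnmb+. Both the highest and the lowest value were thus Gpnmb+ pools. Its log2 fold change of 0.16 had a 95% interval of -0.93 to 1.25, and turned negative without DBA/2J pool 1 (-0.04) or without Gpnmb+ pool 2 (-0.41). Mmp10, stromelysin-2, had 2 to 17 counts per pool, and Mmp11, stromelysin-3, was at 10.1 to 14.5 CPM with overlapping groups. Matrilysin, Mmp7, had 2 to 9 counts per pool and was not tested.

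Of the 7 membrane-anchored MMPs, edgeR called 0 and DESeq2 1 (Mmp25, also the 1 past the unadjusted threshold), and 2 had every DBA/2J pool above the Gpnmb+ pools. Over all genes tested, DESeq2 called 2.76% higher, 4.20% were higher at the unadjusted threshold, and 17.3% had every DBA/2J pool above. Mmp14, or MT1-MMP, which activates the Mmp2 precursor at the cell surface, was at 322, 267 and 347 CPM in DBA/2J and at 246 and 235 CPM in Gpnmb+. Its groups did not overlap, and the log2 fold change was 0.38 (95% interval 0.06 to 0.69, adjusted p = 0.253 by edgeR). Mmp25, an MMP of leukocytes held at the membrane by a lipid anchor, was at 5.22, 3.80 and 2.76 CPM in DBA/2J and at 1.46 and 1.72 CPM in Gpnmb+. The DBA/2J pools were all higher, with a log2 fold change of 1.30 (95% interval 0.53 to 2.08) and adjusted p-values of 0.137 by edgeR and 0.00786 by DESeq2. Mmp15 was the one membrane-anchored MMP with every DBA/2J pool below the Gpnmb+ pools, at 55.5 to 64.0 against 66.9 to 71.0 CPM. Mmp16, Mmp17, Mmp23 and Mmp24 had overlapping groups, and Mmp17 was nearly level at 2.91 to 3.01 CPM in all 5 pools.

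Of the other MMPs, Mmp19 was at 49.2, 41.1 and 39.5 CPM in DBA/2J and at 34.1 and 22.0 CPM in Gpnmb+. Every DBA/2J pool was higher, but its log2 fold change of 0.63 had an adjusted p of 0.231 by edgeR and of 0.0706 by DESeq2. Mmp28 was at 7.96 to 8.91 CPM in DBA/2J and at 7.20 to 7.69 CPM in Gpnmb+, a small difference (log2 0.16) without overlap, and Mmp27 overlapped at 1.79 to 2.54 CPM. Mmp20, the enamel protease, and Mmp21 had 0 counts in every pool. With 3 counts taken as the limit that a count of 0 allows, their level could not be determined at this depth.

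The 7 proteoglycanases, which cut aggrecan and versican, held 4 of the 8 members that were higher at the unadjusted threshold and 1 of the 2 that were lower, and edgeR called 0 and DESeq2 4. Over all genes tested, 4.20% were higher and 4.48% lower at the unadjusted threshold, and DESeq2 called 2.76% higher. Adamts4, or aggrecanase-1, was at 10.3, 3.08 and 8.05 CPM in DBA/2J and at 2.62 and 1.74 CPM in Gpnmb+. DBA/2J pool 2 lay close to Gpnmb+ pool 1, and the log2 fold change was 1.71 (95% interval 0.41 to 3.01, adjusted p = 0.209 by edgeR and 0.0159 by DESeq2).

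Adamts5, or aggrecanase-2, was at 161, 111 and 152 CPM in DBA/2J and at 100.4 and 84.3 CPM in Gpnmb+. The groups did not overlap, with a log2 fold change of 0.61 and adjusted p-values of 0.192 by edgeR and 0.0353 by DESeq2. Its neighbour Adamts1, which cuts versican, was at 211, 72.4 and 133 CPM in DBA/2J and at 80.7 and 105 CPM in Gpnmb+. DBA/2J pools 1 and 2 were the highest and the lowest of all 5, so the groups overlapped.

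Adamts8 was at 8.62, 4.19 and 7.98 CPM in DBA/2J and at 3.27 and 2.23 CPM in Gpnmb+. Adamts9, a versican-cutting protease, was at 35.6, 23.2 and 35.8 CPM in DBA/2J and at 20.5 and 14.7 CPM in Gpnmb+. In both genes every DBA/2J pool was higher and pool 2 was the lowest of the 3. Their log2 fold changes were 1.33 and 0.84, with adjusted p-values of 0.167 and 0.184 by edgeR and 0.0120 and 0.0225 by DESeq2. The antisense gene A730049H05Rik overlaps exons of Adamts9 and had 146 to 163 counts in the DBA/2J pools, above the 93 and 39 of Gpnmb+. The strand setting of the counting is not stated, so reads of these 2 genes cannot be told apart.

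Adamts20, a proteoglycanase known from pigment pattern mutants, was at 0.810, 0.606 and 1.01 CPM in DBA/2J and at 1.62 and 1.39 CPM in Gpnmb+. Every DBA/2J pool was lower, with a log2 fold change of -0.89 and adjusted p-values of 0.243 by edgeR and 0.224 by DESeq2. Adamts15, the neighbour of Adamts8, was at 13.6 to 22.5 CPM with overlapping groups.

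The procollagen N-propeptidases trim fibrillar procollagens before they assemble. Adamts2 was at 65.1, 57.9 and 62.1 CPM in DBA/2J and at 51.2 and 39.3 CPM in Gpnmb+. It did not overlap between genotypes, and its log2 fold change of 0.45 was below the minimum (adjusted p = 0.192 by edgeR). Adamts3 and Adamts14 were below 2.5 CPM in every pool with overlapping groups. Adamts7 and Adamts12, which cut cartilage oligomeric matrix protein, and Adamts13, which cuts von Willebrand factor, also overlapped. Adamts7 shares exon positions with Tbc1d2b, at 5462 and 6006 counts in Gpnmb+ and 3882 to 4210 in DBA/2J.

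Adamts19 had the largest negative log2 fold change of the members tested. It was at 0.517, 0.862 and 0.762 CPM in DBA/2J and at 1.73 and 2.13 CPM in Gpnmb+, from 23 to 37 counts against 88 and 104. Both Gpnmb+ pools were above all DBA/2J pools, with a log2 fold change of -1.43 (95% interval -2.17 to -0.70) and adjusted p-values of 0.103 by edgeR and 0.0101 by DESeq2. Adamts17, which acts on fibrillin, was lower in every DBA/2J pool at 1.00 to 1.17 against 1.45 and 1.71 CPM. Adamts18 was higher in every DBA/2J pool at 10 to 21 counts in all pools, and Adamts6, Adamts10 and Adamts16 overlapped.

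**Figure D2:**
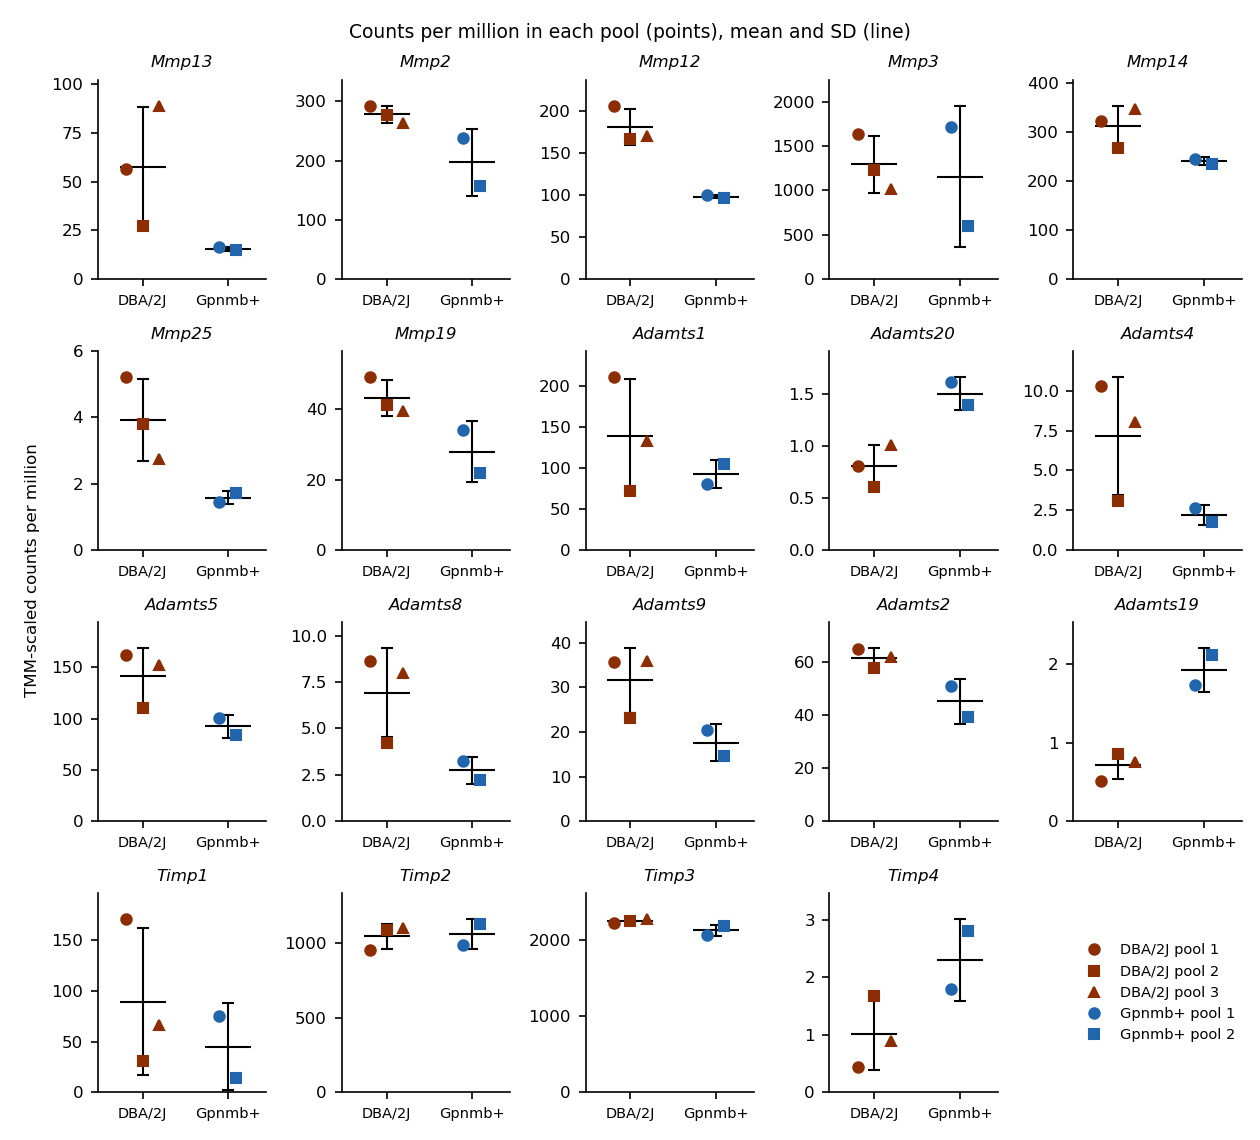
TMM-scaled CPM (y axis, from 0) of 19 members in the 3 DBA/2J and 2 Gpnmb+ pools (points), with the mean (bar) and SD (whisker) of each genotype. The Mmp12 pools of each genotype lie close together (167 to 206 against 96.7 and 99.7), Mmp13, Adamts1 and Adamts4 spread widely within DBA/2J, and Timp2 and Timp3 are nearly level.

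Among the 4 inhibitors edgeR and DESeq2 called 0, and 0 passed the unadjusted p with the fold change. Timp3 was at 2215, 2242 and 2264 CPM in DBA/2J and at 2066 and 2173 CPM in Gpnmb+. The DBA/2J pools were higher by a log2 fold change of 0.08 (95% interval -0.18 to 0.34), and the groups overlapped when pool totals were not scaled by TMM factors, since Gpnmb+ pool 2 was then at 2201 CPM and DBA/2J pools 1 and 2 at 2160 and 2191 CPM. Timp2, which also takes part in Mmp2 activation, was at 951, 1089.7 and 1098 CPM in DBA/2J and at 988 and 1129.8 CPM in Gpnmb+. The groups overlapped, with a log2 fold change of -0.02 and a 95% interval of -0.31 to 0.28.

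Timp1, an inhibitor that cells release under inflammatory signals, varied more between pools of one genotype than between genotypes. It was at 170 CPM in DBA/2J pool 1 and at 30.5 and 66.8 CPM in pools 2 and 3, and at 75.6 and 14.6 CPM in the Gpnmb+ pools. The highest and lowest pool differed 5.58-fold within DBA/2J and 5.19-fold within Gpnmb+. Its log2 fold change of 0.98 had a 95% interval of -1.21 to 3.17 and an adjusted p of 0.648 by edgeR. Timp1 lies on the X chromosome, in an intron of Syn1 on the opposite strand, which had 79 to 224 counts.

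Timp4 was the scarcest inhibitor, at 0.450, 1.68 and 0.897 CPM in DBA/2J and at 1.79 and 2.80 CPM in Gpnmb+. The highest DBA/2J pool lay just below the lower Gpnmb+ pool, and the log2 fold change of -1.19 had a 95% interval of -2.48 to 0.11. The exons of Timp4 overlap those of Syn2 on the opposite strand, at 425 and 499 counts in Gpnmb+ and 132 to 191 in DBA/2J, against 20 to 137 for Timp4. The reads of the 2 genes cannot be told apart without the strand setting. Timp4 and Adamts9 are the members on chromosome 6, which also carries Gpnmb, at 66.1 and 43.7 Mb from it. Timp3 likewise lies inside Syn3, whose 199 to 442 counts were few beside the 96246 to 106278 of Timp3.

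To compare genes with one another, CPM were divided by the length of all exons of a gene in kilobases. On this scale of level per length, Mmp3 was highest at 330 to 954 per pool, above Timp3 at 254 to 278 and Timp2 at 213 to 253. Mmp3 was above both inhibitors in every pool, but with the length of the canonical transcript it lay below Timp3 in Gpnmb+ pool 2 (330 against 460.0). Mmp2 (44.5 to 82.7), Mmp14 (38.2 to 56.3) and Timp1 (7.45 to 87.0) followed with overlapping ranges, as did Adamts1 (13.2 to 38.6) and Mmp12 (13.4 to 28.5). The same 8 genes came first when the canonical transcript was used, a choice added after the data were seen. At the other end of the order, 18 members had a mean level below 0.5 in both genotypes.

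**Figure D3:**
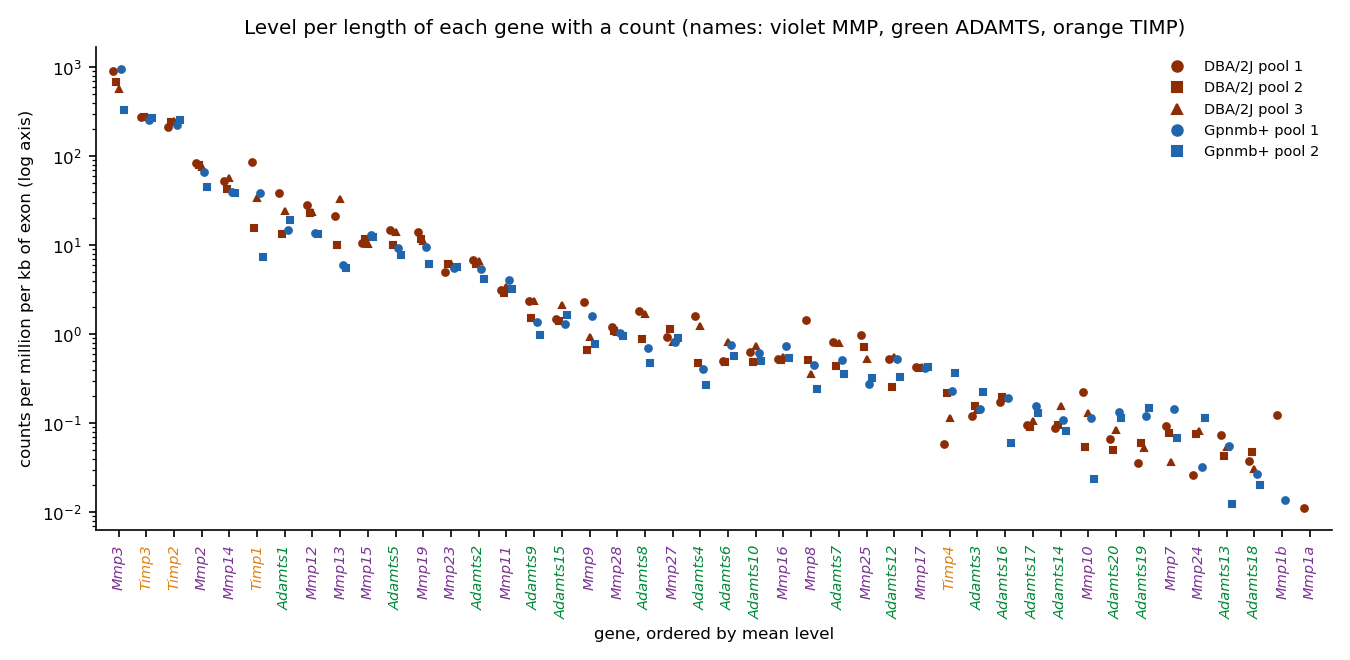
CPM per kilobase of exon (y axis, log scale) in each of the 5 pools for the 44 members with at least 1 count, ordered by mean level, with points of value 0 not drawn. Mmp3, Timp3 and Timp2 lie at the top, and the pools of Timp1, Mmp9, Mmp8 and Mmp10 spread more than those of their neighbours.

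Summed over a family, level per length was 1133, 876 and 785 for the MMPs in DBA/2J and 1119 and 463 in Gpnmb+. Mmp3 made up 71.2% to 85.3% of it, and the genotypes overlapped. Without Mmp3 the MMP sum was 226, 193 and 224 in DBA/2J and 165 and 134 in Gpnmb+, so that all DBA/2J pools were higher. The ADAMTS sum was 70.7, 36.2 and 56.0 in DBA/2J and 36.5 and 37.0 in Gpnmb+. DBA/2J pool 2 was level with the Gpnmb+ pools, and pools 1 and 3 were above them. The TIMP sum was 572, 535 and 558 in DBA/2J and 514 and 528 in Gpnmb+. These sums are dominated by their most abundant genes and were not tested.

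**Figure D4:**
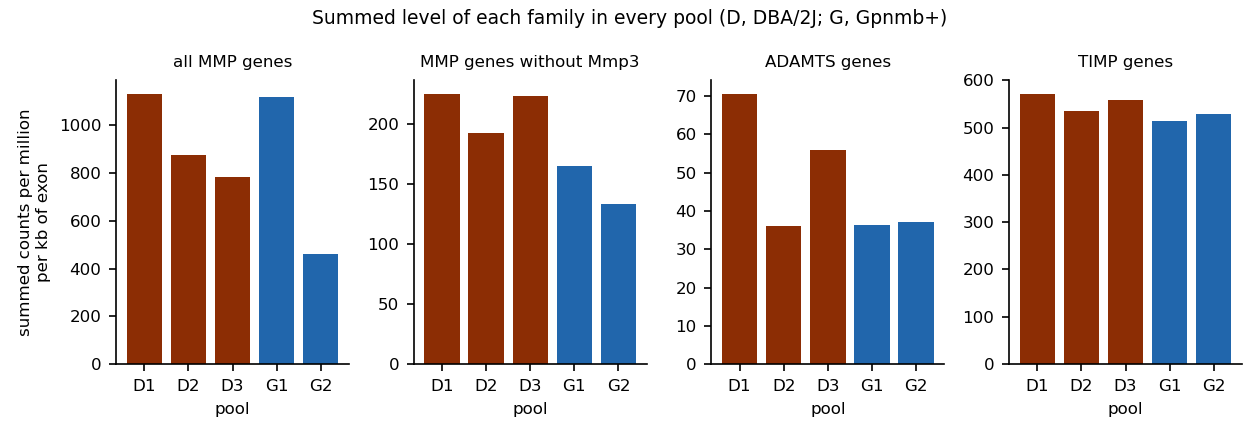
Summed CPM per kilobase of exon (y axes, each from 0) of the MMPs, the MMPs without Mmp3, the ADAMTS proteases and the TIMPs in DBA/2J pools 1 to 3 (D1 to D3) and Gpnmb+ pools 1 and 2 (G1, G2). Without Mmp3 the 3 DBA/2J bars (193 to 226) are above both Gpnmb+ bars (134 and 165), and the TIMP bars differ little, from 514 to 572.

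Several members differed between pools of the same genotype. With 0.5 added to CPM, 8 of 41 members (19.5%) differed at least 2-fold between 2 pools of one genotype, against 6.34% of all genes tested. These were Timp1, Timp4, Mmp3, Mmp8, Mmp9, Mmp13, Adamts1 and Adamts4. Between DBA/2J pools 1 and 2 the number was 7 of 41, against 1.99% of all genes. DBA/2J pool 1 was the highest of the 5 pools for Timp1, Mmp8, Mmp9, Mmp10, Adamts1 and Adamts4. It was also the highest for the called gene Mmp12, and for Mmp2, Mmp19, Mmp25, Mmp28, Adamts2, Adamts5, Adamts7, Adamts8 and Adamts13.

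Neutrophil markers summed to 311 CPM in DBA/2J pool 1 and 360 CPM in Gpnmb+ pool 1, and to 74.5 to 97.1 CPM in the other 3 pools. Elane was at or under 3 counts everywhere, Ly6g and Mpo were below the count minimum, and Ltf, which glands also make, supplied 242 of the 360 CPM. S100a9, a marker carried by neutrophils and monocytes, was at 126, 8.99 and 12.4 CPM in DBA/2J and at 45.3 and 4.15 CPM in Gpnmb+. Il1b, a cytokine that induces MMPs, was at 50.3, 7.01 and 12.2 CPM in DBA/2J and at 23.6 and 2.78 CPM in Gpnmb+. Fos was at 171, 20.1 and 31.0 CPM in DBA/2J and at 13.6 and 20.0 CPM in Gpnmb+. Mmp13 was highest in DBA/2J pool 3 and Mmp3 in Gpnmb+ pool 1. The part of these cells and signals in the values of the members was not tested. Of the 8 tested members with the AP-1 letters in their promoter, 7 had a positive log2 fold change. So had 29 of all 41 members tested and 9350 of the 19713 genes tested. The 8 ran from -0.41 to 1.89 with a median of 0.39, beside 0.20 over the 41 members. The part of AP-1 in these values was not tested.

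**Figure D5:**
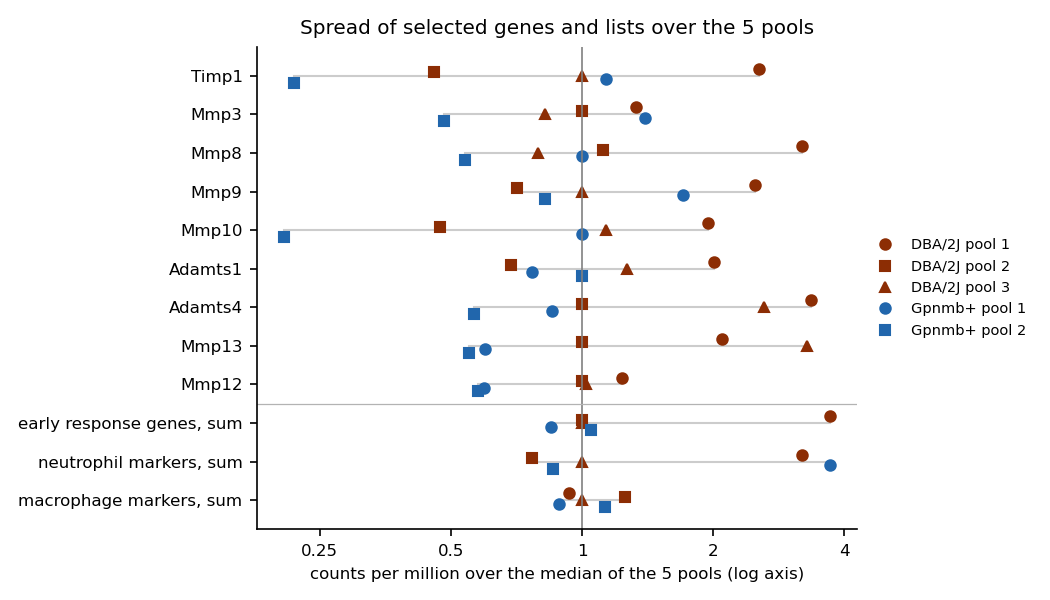
CPM of 9 members and the sum of 3 gene lists in each pool, divided by the median of the 5 pools (x axis, log scale). Timp1, Mmp8 and Mmp9 are highest in DBA/2J pool 1 (170, 3.53 and 8.62 CPM), as are the early response genes (4365 CPM), and the neutrophil marker sum is high in DBA/2J pool 1 and Gpnmb+ pool 1 (311 and 360 CPM).

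Genes that activate MMP precursors were 13 in number, of which 9 were tested and 0 called by edgeR (2 at an unadjusted p of at most 0.05 with the fold change, and 2 called by DESeq2), with 7 positive and a median log2 fold change of 0.53. Over all genes tested, 4.20% were higher at the unadjusted threshold, DESeq2 called 2.76% higher and the median was -0.02. Plau, or urokinase, which makes the plasmin that cleaves MMP precursors, was at 96.1, 45.3 and 47.2 CPM in DBA/2J and at 29.8 and 27.5 CPM in Gpnmb+. Its receptor Plaur was at 22.3, 14.9 and 13.9 CPM against 8.83 and 8.73 CPM. Neither gene overlapped between genotypes, and their adjusted p-values were 0.209 and 0.134 by edgeR. Plg, the precursor of plasmin, was at or under 3 counts in every pool.

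Among genes that inhibit or clear these proteases, Reck, a membrane-anchored inhibitor of MMPs, was at 73.8, 74.2 and 88.5 CPM in DBA/2J and at 126 and 114 CPM in Gpnmb+. All DBA/2J pools were lower, with a log2 fold change of -0.60 and an adjusted p of 0.0820 by edgeR. A2m, a plasma-type protease trap, and Lrp1, the receptor that clears MMPs and TIMPs, were not called. Among the 6 ADAMTS-like genes 1 was called by edgeR, against 0.796% of all genes tested. Adamtsl3 fell, from 56.7 and 56.1 CPM in Gpnmb+ to 29.0, 33.4 and 33.7 CPM in DBA/2J (log2 fold change -0.82, adjusted p = 0.0350 by edgeR), a call lost whichever pool was left out (adjusted p from 0.0666 to 0.145). Adamtsl2 was at 16.5, 12.6 and 15.9 CPM in DBA/2J and at 7.84 and 4.07 CPM in Gpnmb+, higher in every DBA/2J pool, with a log2 fold change of 1.33 and adjusted p-values of 0.115 by edgeR and 0.000777 by DESeq2. Adamtsl1 was also higher in every DBA/2J pool (log2 0.55, adjusted p = 0.138 by edgeR). Adamtsl4 and Adamtsl5 were lower in every DBA/2J pool (log2 -0.24 and -0.23, adjusted p = 0.244 and 0.298 by edgeR). Of the 6 genes 2 had a positive and 4 a negative log2 fold change, with a median of -0.23. In every DBA/2J pool 2 were higher and 3 lower, against 17.3% and 17.2% of all genes tested.

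Among 20 matrix substrates, all tested, edgeR called 1 and DESeq2 7, all higher. Over all genes tested, edgeR called 0.796% in either direction and DESeq2 2.76% higher. At the unadjusted threshold 10 were higher and 0 lower, against 4.20% and 4.48% of all genes tested, and the median log2 fold change was 0.64. Vcan, the proteoglycan versican, rose in DBA/2J, at 250, 248 and 248 CPM against 97.9 and 66.5 CPM in Gpnmb+ (log2 fold change 1.60, adjusted p = 0.0294 by edgeR). It was called in 1 of 5 fits with a pool left out, with adjusted p-values from 0.0172 to 0.117. Vcan is cut by proteoglycanases, whose values stand above. Of the 7 proteoglycanases 6 had a positive log2 fold change and 1, Adamts20, a negative log2 fold change (-0.89). The groups of Adamts1 and Adamts15 overlapped. Col2a1 and Col1a1 were next by p-value, with log2 fold changes of 1.90 and 0.99 and adjusted p-values of 0.0513 and 0.0867 by edgeR. Dcn, the proteoglycan decorin, was at 1987, 2405 and 2151 CPM in DBA/2J and at 2979 and 2934 CPM in Gpnmb+, lower in every DBA/2J pool (log2 -0.44, adjusted p = 0.185 by edgeR).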

How the data were processed

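RNA was measured in 5 pools of iridocorneal angle tissue, 3 DBA/2J and 2 Gpnmb+, grouped by the genotype in the labels. Pools are numbered as in the sample titles, and the normalized values published with the study appear to number the DBA/2J pools in another order, which leaves the groups as they are. The authors enriched mRNA, sequenced paired-end libraries, trimmed adapters (fastp), mapped reads to GRCm39 (STAR) and deposited the raw counts of singly mapped reads on each gene, not normalized. The strand setting is not given in the sources used here, so overlapping genes on opposite strands are uncertain. Unique alignment also loses reads in regions shared by near-identical genes. All sample columns of the deposited table were used (0 left out), and no libraries held identical values. Totals per pool ran from 43900661 to 49837758 counts. Floors of 3 counts cover counting error alone.

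Names, positions and lengths came from GENCODE M39 (GRCm39), in which 56323 of the 56941 identifiers were found, and promoter sequence from the GRCm39 genome. The fits used edgeR 4.0.16, DESeq2 1.42.0 and limma 3.58.1 under R 4.3.3, and the tables scipy 1.17.1, pandas 2.3.3 and numpy 2.4.6 under Python 3.11.15. Every gene reaching 10 counts in any pool entered edgeR's quasi-likelihood test with TMM scaling and no covariate, after a check of the fit on simulated data. Calls needed a Benjamini-Hochberg adjusted p of at most 0.05 over all genes tested and a fold change of at least 1.5. CPM are counts per 1000000 TMM-scaled counts of a pool, and level per length was CPM divided by kilobases of exon. With 3 pools against 2, the smallest two-sided p of an exact permutation test is 0.2, so p-values came from the fit over all genes.

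The members and lists were chosen with earlier results of these data known. Values in every pool were given for members called, members with separate groups and an unadjusted edgeR p of at most 0.05, the 4 TIMPs and the 8 members of highest level per length. Members added outside this rule, chosen after their values were seen, were Mmp8, Mmp9, Mmp15, Mmp17, Mmp27, Mmp28, Adamts15, Adamts17 and Adamts18. Alternatives were edgeR with size factors from DESeq2, the Wald test of DESeq2, limma-voom, no count filter, filterByExpr, unadjusted p-values, no fold change minimum, library size alone for the group overlap, the pool number as a block, and each pool left out. The canonical transcript length was added after the data were seen. Proteomics and pressure data were not analysed here. Some genes of the lists and some overlapping genes are not reported here.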

Additional observations from a re-analysis of the deposited data

How the results depend on the processing

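The 157 genes and 1 member called higher by edgeR became 927 and 7 (with 1 member lower) under DESeq2's Wald test, 1710 and 8 (with 2 lower) at unadjusted p-values, and 360 and 1 with no filter on low counts. Leaving out 1 pool gave 1 to 217 genes and 0 to 0 members called. The lowest was without DBA/2J pool 2 (1 gene), followed by Gpnmb+ pool 2 (2), DBA/2J pool 1 (6) and DBA/2J pool 3 (17). Without a Gpnmb+ pool the lone pool is assumed to vary like the DBA/2J pools. The 14 members higher in every DBA/2J pool became 15 to 22 with a pool left out, and the 5 lower became 5 to 9. Leaving out a pool can only keep or raise these counts, whatever the genes. With library size alone the 14 and 5 were 13 and 5, Timp3 being the member that then overlapped. At an unadjusted p with the fold change minimum, 8 members were higher and 2 lower, which became 3 to 13 and 1 to 2 with a pool left out (3 higher without Gpnmb+ pool 2, 13 without Gpnmb+ pool 1, and 6 higher and 1 lower without DBA/2J pool 1). Shares of all genes tested with a pool left out are not given here, neither for separate groups nor for the unadjusted threshold. The changes in these counts are therefore not a result about the members. DESeq2's size factors, limma-voom, filterByExpr and no fold change minimum changed no call of a named member.

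Among the 19 members with values in every pool by rule, log2 fold changes that changed sign were those of Mmp3 and Timp2, both uncalled and near 0. Other uncalled members also crossed 0 with a pool left out. Among them were Mmp9 (-0.56 to 0.77), Mmp24 (-0.89 to 0.94) and Adamts16, which was 0.58 with all pools and at lowest -0.02. With a pool left out, Mmp3 ran from -0.41 (without Gpnmb+ pool 2) to 1.13 (without Gpnmb+ pool 1), and was -0.04 without DBA/2J pool 1. Timp2 moved from -0.02 to 0.0025 with no filter, and with a pool left out ran from -0.11 (without Gpnmb+ pool 1) to 0.083 (without Gpnmb+ pool 2), with 0.05 without DBA/2J pool 1. The cause was not tested.

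With the pool number as a replicate block, 2 members were called higher, Mmp12 and Timp1 (log2 1.12, adjusted p = 0.0274 by edgeR), and 220 genes in all. Same-numbered pools share only a number in the labels, and the correlations of their deviations were 0.279 and 0.254 over 2 pairs, so a pairing was not established.

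With canonical transcript length, the mean TIMP sum was 849 in DBA/2J and 780 in Gpnmb+, and the MMP sum without Mmp3 was 321 and 227. Low counts limit the precision of Mmp10, Adamts13, Adamts18, Mmp24 and Adamts14, each with at most 41 counts per pool.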

Other observations

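The ADAM proteases, membrane relatives of the ADAMTS family that shed cell surface proteins, varied in direction. All 9 tested were uncalled by edgeR and DESeq2 (0 at an unadjusted p of at most 0.05 with the fold change minimum), and log2 fold changes ran from -0.79 (Adam33, lower in every DBA/2J pool) to 0.80 (Adam12, with overlapping groups), with a median of 0.10. Adam17, which releases tumour necrosis factor, was at 118, 119 and 110 CPM in DBA/2J and at 102 and 103 CPM in Gpnmb+. Adam8, a protease of leukocytes, was at 49.0 CPM in DBA/2J pool 1 and at 12.6 to 21.6 CPM in the other 4 pools.

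Of 11 cytokines and growth factors that regulate these proteases, 10 were tested, 0 were called by edgeR and 1 by DESeq2, and 2 were higher at the unadjusted threshold. Over all genes tested, DESeq2 called 2.76% higher and 4.20% were higher at the unadjusted threshold. Tgfb2, a growth factor raised in glaucomatous aqueous humor, was at 270, 284 and 278 CPM in DBA/2J and at 203 and 150 CPM in Gpnmb+. All DBA/2J pools were higher, with a log2 fold change of 0.65 and an adjusted p of 0.108 by edgeR. Il6 was at 10.3 CPM in DBA/2J pool 1 and at 0.164 to 0.807 CPM in the other 4 pools. Tnf was highest in Gpnmb+ pool 2, at 10.1 CPM against 1.81 to 3.04 CPM elsewhere, a pool in which Timp1, Mmp3 and Mmp8 were at their lowest.

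The remaining marker lists gave these counts of calls by edgeR, beside 0.796% of all genes tested. Mast cell markers had 0 of 7 called and summed to 228 to 289 CPM in the 5 pools. Fibroblast, endothelial and smooth muscle markers had 0 of 7, 0 of 8 and 0 of 7 called. Schwann cell markers had 2 of 7 called lower and pigment cell markers 1 of 7 lower. Trabecular meshwork markers had 1 of 10 called higher, Cyp1b1, and 2 called lower, among them Edn3. Corneal epithelium had 0 of 6, skeletal muscle 0 of 8 and cartilage-type matrix 0 of 5 called, with skeletal muscle markers that summed to 189, 293 and 447 CPM in DBA/2J and to 189 and 119 CPM in Gpnmb+. At the unadjusted p with the fold change minimum, these lists with 0 calls held 2 fibroblast, 3 skeletal muscle and 2 cartilage-type markers that were higher, 1 corneal and 1 cartilage-type marker that were lower, and 0 for the others, and DESeq2 called 2 fibroblast, 2 skeletal muscle and 2 cartilage-type markers. Over all genes tested, 4.20% were higher and 4.48% lower at the unadjusted threshold, and DESeq2 called 2.76% higher and 1.94% lower. The calls of Cyp1b1 and Edn3 were lost whichever pool was left out.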
